A study of Homo sapiens with 4 samples.

Results

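The genes described here code for the protein parts of the small nuclear ribonucleoproteins (snRNPs) and their close partners in splicing. Members were every gene of the table with the biotype protein_coding and a symbol of the SNRP, numbered LSM, SF3A, SF3B, numbered PRPF or U2AF families. The rule used no measured value and took 51 of 51740 genes, of which 50 were among the 23333 genes with an adjusted p-value. The RNA was from wildtype HEK293T (a line of human embryonic kidney origin), crosslinked with formaldehyde and split into a nuclear and a cytoplasmic fraction. Each fraction had 2 libraries, stated to be biological replicates, made from 400 ng of RNA each. Ribosomal RNA was depleted and paired reads of 100 nt were sequenced with strand kept. The comparison asks in which fraction the RNA of each gene was relatively higher.

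An snRNP is a short uridine-rich RNA bound by a ring of Sm proteins, or by LSm proteins in the case of U6, together with proteins particular to each particle. The U1 and U2 snRNPs mark the ends of the intron, SF3A and SF3B belong to the U2 snRNP, and many PRPF proteins belong to the U4/U6 and U5 snRNPs or join later. The proteins act in the nucleus, but their mRNAs are translated in the cytoplasm, where Sm rings are also assembled on the RNAs.

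The nuclear long non-coding RNAs MALAT1 and NEAT1, which mark the nuclear fraction, had log2 fold changes (cytoplasmic over nuclear) of -3.47 (SE 0.13) and -3.09 (SE 0.13). Size factors, the scaling numbers that make libraries comparable, came to 1.34 and 1.19 (nucleus) and to 0.853 and 0.755 (cytoplasm). If both libraries of a fraction held the same normalized sum, these correspond to between 21567507 and 24481541 counted read pairs per library. The libraries of a fraction are called deeper and shallower below, since the replicate number of each was not known. Reads in introns as well as exons were counted, so spliced and unspliced RNA of a gene cannot be told apart in any value given here. Libraries were made from equal amounts of RNA, so the values are relative and not molecules per cell. On the deposited scale the normalized sums came to 18136040 for the nucleus and 28705052 for the cytoplasm. Equal values on that scale are therefore not equal shares of a fraction's RNA. Shares are compared by the scale of equal library totals, given below.

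Transcripts of most snRNP protein genes were relatively higher in the cytoplasmic than in the nuclear fraction. With calls made at adjusted p-values up to 0.01 in the authors' deposited DESeq2 fit, 35 of the 50 tested members (70.0%) were higher in the cytoplasmic fraction, against 25.9% of all tested genes and 35.6% of tested protein-coding genes. Another 10 members (20.0%) were higher in the nuclear fraction, against 26.5% of all tested genes and 28.4% of protein-coding genes, and 5 were not called. The median log2 fold change of the members was 1.42, beside 0.11 for all tested protein-coding genes and -0.12 for all tested genes. Where both fractions are instead scaled to equal totals, values compare shares, and every log2 fold change is lower by 0.66. The members then divided into 31 higher in the cytoplasm and 12 higher in the nucleus. On that scale 22.4% of protein-coding genes were called cytoplasmic and 42.6% nuclear.

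In 38 of the 50 tested members both cytoplasmic libraries lay above both nuclear libraries, and in 11 both nuclear libraries lay above. The same counts were not made over all tested genes, so these are not read as particular to the members. The libraries of a fraction were close to each other, with a median absolute log2 ratio of 0.12 between the nuclear libraries and 0.11 between the cytoplasmic ones. The recovery of these counts allowed at most 2-fold between the libraries of a fraction, except at low means. The widest gaps found were 0.29 for SF3B2 in the nucleus and 0.48 for PRPF38B in the cytoplasm. The span from PRPF39 at -1.86 to the highest member, SF3B5 at 3.54, was therefore many times wider than the spread between libraries. U2AF1 and its near-identical copy U2AF1L5 were listed lower still, at -2.26 and -2.42, but their values are uncertain, as described below.

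**Figure D1:**
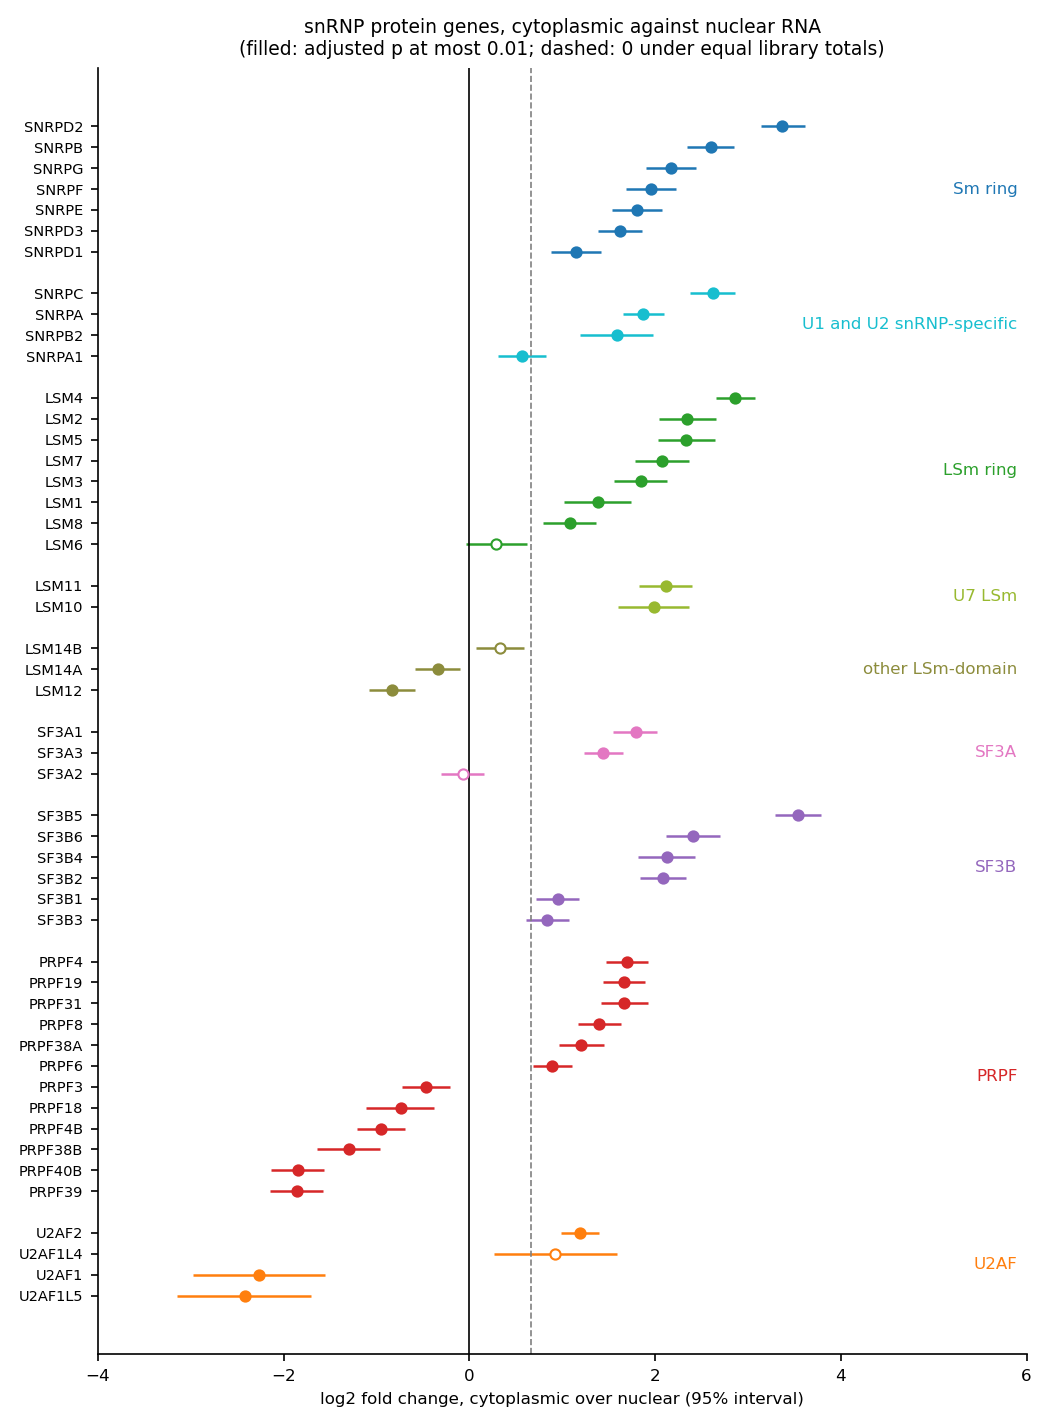
Log2 fold change, cytoplasmic over nuclear, of 49 tested members (x axis) with 95% intervals, by gene and class (y axis); filled points passed an adjusted p-value of 0.01, and the dashed line is the zero under equal library totals. Sm and LSm ring genes lie to the right of zero, while PRPF genes run from -1.86 to 1.70.

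All tested Sm ring genes, whose products form the core ring shared by the U1, U2, U4 and U5 particles, were higher in the cytoplasmic fraction (7 of 7, median log2 fold change 1.96), and this direction held under equal library totals (median 1.30). The highest was SNRPD2 (ENSG00000125743, hg38 chr19:45687460-45692569), with normalized counts of 622 and 714 in the nuclear libraries and 6946 and 6903 in the cytoplasmic libraries. The cytoplasmic libraries of SNRPD2 were about alike and both were far above the nuclear ones, a 10.4-fold difference (log2 fold change 3.37, SE 0.12, adjusted p = 3.27e-177, authors' deposited DESeq2 fit), above 98.6% of tested protein-coding genes. SNRPB, the B subunit of the ring, had 1345 and 1638 normalized counts in the nucleus and 8333 and 9694 in the cytoplasm, a 6.04-fold difference. The lowest of the class was SNRPD1, the D1 subunit, with 600 and 642 in the nucleus and 1395 and 1362 in the cytoplasm. Its libraries did not overlap between fractions, and the difference was 2.22-fold (log2 fold change 1.15, SE 0.14, adjusted p = 1.63e-16). SNRPG, SNRPF, SNRPE and SNRPD3 lay between, from 4.50-fold down to 3.08-fold.

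The remaining Sm gene, SNRPN, a paralogue of SNRPB transcribed from an imprinted locus on chromosome 15, was barely detected. It had 1 read in each nuclear library, 0 in the deeper and 3 in the shallower cytoplasmic library, and no adjusted p-value, so no difference was detectable at this depth.

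A Sm ring holds its subunits in equal numbers, but the RNA levels of their genes were not equal. Per kilobase of the canonical transcript, the cytoplasmic normalized count was 13446 for SNRPD2, 8331 for SNRPB, 3539 for SNRPF and 2816 for SNRPG. It was 1084 for SNRPE, 972 for SNRPD3 and 284 for SNRPD1, whose canonical transcript is also the longest of the class at 4.86 kb. These levels depend on the transcript model used for each gene, and intronic reads are included in the counts. Stretches shared by several genes were left out of the counting annotation. In GENCODE 44 another gene, on either strand, lies over 98.7% of the exonic length of SNRPD3, 84.5% of SNRPN, 35.6% of SNRPF and 13.8% of SNRPB. The stretches the authors left out may differ from these. The levels of these genes are therefore not comparable with those at or near 0, such as SNRPE and SNRPD1. Outside the Sm class the share was highest for LSM7 (100%), U2AF1L4 (99.5%), PRPF38A (92.2%), PRPF4B (71.7%), PRPF18 (66.5%), PRPF40B (53.3%) and U2AF2 (48.3%). Its bearing on their fold changes was not tested.

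Of the proteins particular to the U1 and U2 snRNPs, all 4 genes under the symbol rule were higher in the cytoplasm on the deposited scale. SNRPC, the zinc-finger protein of the U1 snRNP, had 528 and 576 normalized counts in the nuclear libraries and 3411 and 3386 in the cytoplasmic libraries. That is a 6.16-fold difference (log2 fold change 2.62, SE 0.12, adjusted p = 3.04e-99). SNRPA, the other U1 protein under the rule, differed 3.66-fold. SNRNP70, a U1 protein outside the rule and named after its values were seen, differed 1.29-fold. Its log2 fold change was -0.30 under equal library totals.

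The U2 proteins A-prime (SNRPA1) and B-double-prime (SNRPB2) bind each other on the U2 RNA, yet their transcripts were divided unequally. SNRPA1 had 1108 and 1156 normalized counts in the nucleus and 1557 and 1805 in the cytoplasm, a 1.48-fold difference (log2 fold change 0.57, SE 0.13, adjusted p = 4.64e-05), which turned to -0.09 under equal library totals. SNRPB2 had 177 and 211 in the nucleus and 648 and 516 in the cytoplasm, a 3.01-fold difference. Within single libraries, where no scaling between fractions enters, 6.27 and 5.48 reads of SNRPA1 were counted per read of SNRPB2 in the nucleus, and 2.40 and 3.50 in the cytoplasm. The log2 fold change of SNRPA1 was lower than that of SNRPB2 by 1.02 (95% interval of the difference -1.49 to -0.55, taking the errors of the genes as independent).

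LSm rings come in a nuclear form on the U6 RNA, which holds LSM8, and a cytoplasmic form in mRNA decapping, which holds LSM1 in its place. The other LSm ring proteins are common to both. Of the 8 genes, 7 were higher in the cytoplasm and LSM6 was not called (median log2 fold change of the class 1.96). LSM4 was highest, with 874 and 881 normalized counts in the nuclear libraries and 6391 and 6373 in the cytoplasmic libraries, a 7.27-fold difference (log2 fold change 2.86, SE 0.11, adjusted p = 6.95e-147). LSM2, LSM5, LSM7 and LSM3 followed at 5.08-fold, 5.04-fold, 4.20-fold and 3.60-fold. The genes of the alternative subunits were close to each other. LSM1, of the cytoplasmic ring, had 208 and 221 in the nucleus and 552 and 566 in the cytoplasm (2.61-fold). LSM8, of the nuclear ring, had 526 and 543 in the nucleus and 1180 and 1076 in the cytoplasm (2.11-fold). The difference between their log2 fold changes was 0.30 with a 95% interval from -0.15 to 0.76, so a difference between the subunits was not resolved.

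LSM6 stood apart from the rest of the ring, with 456 and 452 normalized counts in the nuclear libraries and 516 and 596 in the cytoplasmic libraries. The cytoplasmic values were above the nuclear ones by 1.22-fold (log2 fold change 0.29, 95% interval -0.04 to 0.62, adjusted p = 0.128), and under equal library totals the value was -0.37, also not called. LSM10 and LSM11, which take the place of the D1 and D2 proteins in the U7 snRNP of histone mRNA processing, were both higher in the cytoplasm, at 3.97-fold and 4.33-fold.

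The LSm-domain proteins that belong to no snRNP ring showed another distribution. LSM12 had 1952 and 1949 normalized counts in the nucleus and 1109 and 1077 in the cytoplasm, so the nuclear level was 1.78-fold higher (log2 fold change -0.83, SE 0.12, adjusted p = 4.92e-11). LSM14A and LSM14B are related proteins of cytoplasmic P-bodies. LSM14A was 1.27-fold higher in the nucleus (log2 fold change -0.34, SE 0.12, adjusted p = 0.00886). LSM14B, at 911 and 912 in the nucleus and 1143 and 1150 in the cytoplasm, was not called (log2 fold change 0.33, adjusted p = 0.0235), and under equal library totals its value was -0.33, also not called. The call of LSM14A was lost in 3 of 4 refits that left out a library, with log2 fold changes of -0.25 without the shallower cytoplasmic library, -0.33 without the deeper nuclear and -0.35 without the shallower nuclear library.

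**Figure D2:**
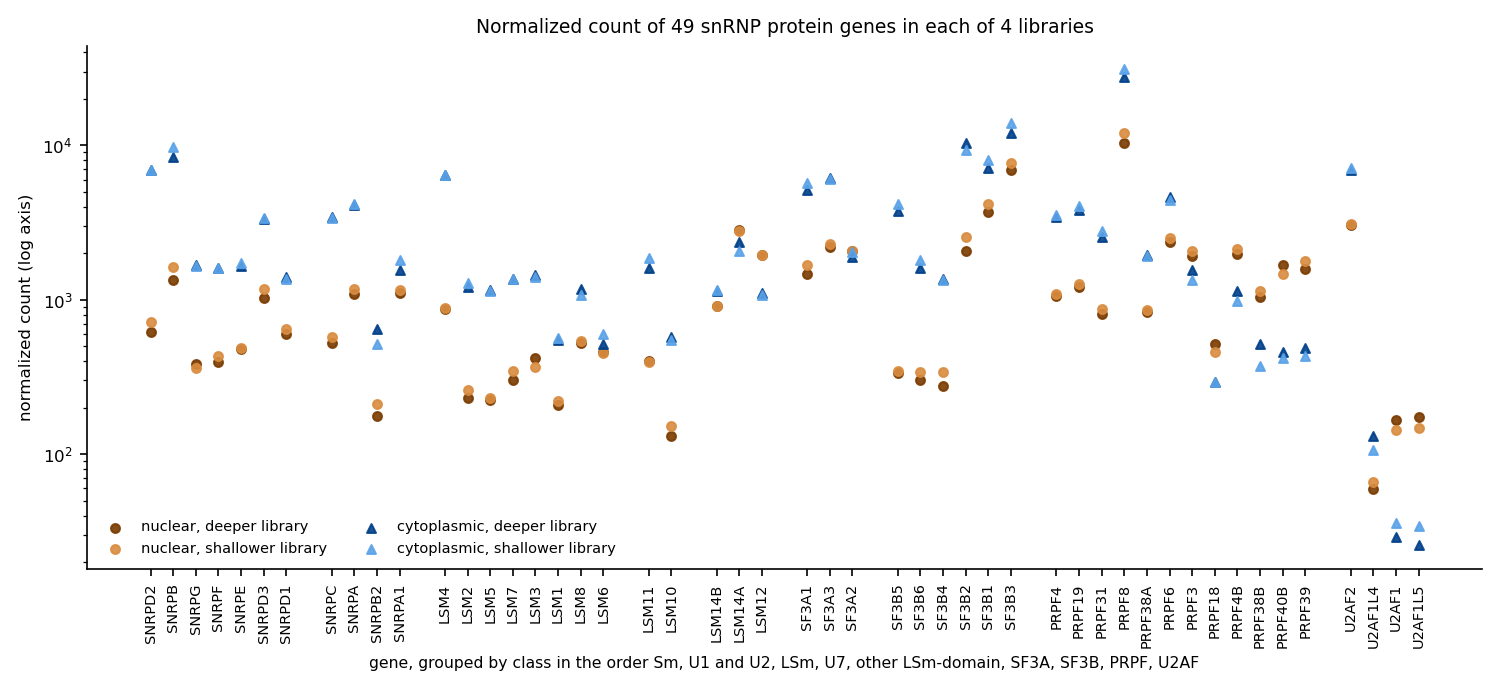
Normalized count (y axis, log scale) of 49 tested members (x axis) in the 2 nuclear (circles) and 2 cytoplasmic (triangles) libraries. Triangles lie above circles across the Sm and LSm rings and SF3B, and the order turns in 6 PRPF genes, LSM12, LSM14A, U2AF1, U2AF1L5 and, by a small margin and without a call, SF3A2.

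SF3A and SF3B are the protein complexes of the U2 snRNP that hold the branch point. All 6 SF3B genes were higher in the cytoplasm (median log2 fold change 2.11), as were 2 of the 3 SF3A genes. SF3B5, which codes for one of the smallest SF3B subunits, was the highest of all members (ENSG00000169976, hg38 chr6:144094884-144095573). It had 334 and 345 normalized counts in the nuclear libraries and 3763 and 4151 in the cytoplasmic libraries. This 11.7-fold difference (log2 fold change 3.54, SE 0.13, adjusted p = 8.59e-167) exceeded those of 99.1% of tested protein-coding genes. SF3B5 has 1 exon over 0.690 kb and is the shortest gene among the tested members, with no intron in which reads could be counted.

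Within SF3B the genes with the longest coding sequences, SF3B1 (3912 nt) and SF3B3 (3651 nt), had the lowest values. The smaller subunits SF3B6 and SF3B4 differed 5.31-fold and 4.37-fold. SF3B2, whose coding length of 2685 nt is the next longest, was close to SF3B4 at 4.25-fold. SF3B1, the large scaffold that closes around the branch point, had 3709 and 4194 normalized counts in the nucleus and 7144 and 8073 in the cytoplasm (1.93-fold). SF3B3 had 6867 and 7693 in the nucleus and 12032 and 13988 in the cytoplasm. This was the lowest ratio of the complex (1.79-fold, log2 fold change 0.84, SE 0.12, adjusted p = 2.84e-12). SF3B1 and SF3B3 kept their direction under equal library totals, at log2 fold changes of 0.28 and 0.18, but were then no longer called.

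Among SF3A genes, SF3A1 was 3.45-fold (log2 fold change 1.79, SE 0.12) and SF3A3 2.71-fold higher in the cytoplasm. SF3A2 was at a similar level in every library, with 2069 and 2068 normalized counts in the nucleus and 1895 and 2050 in the cytoplasm (log2 fold change -0.07, 95% interval -0.30 to 0.16, adjusted p = 0.641). Under equal library totals SF3A2 was called higher in the nucleus, at -0.73. In single libraries there were 0.706 and 0.806 reads of SF3A1 per read of SF3A2 in the nucleus and 2.71 and 2.76 in the cytoplasm. These subunits of one complex thus differed by 1.86 in log2 fold change (95% interval 1.53 to 2.19). SF3A1 and SF3A2 are the highest and lowest of the 3 SF3A genes, and the interval makes no allowance for that.

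The PRPF genes were the most divided class, with 6 of 13 (46.2%) higher in the cytoplasm and 6 (46.2%) higher in the nucleus. Among tested protein-coding genes these shares were 35.6% and 28.4%. The median log2 fold change of the PRPF genes was 0.09 on the deposited scale and -0.57 under equal library totals. Both were close to the medians of tested protein-coding genes, 0.11 and -0.55. The genes of the U4/U6 and U5 proteins were mostly on the cytoplasmic side. PRPF4, a U4/U6 protein, was highest, with 1061 and 1082 normalized counts in the nucleus and 3432 and 3522 in the cytoplasm (3.24-fold, log2 fold change 1.70, SE 0.12, adjusted p = 6.56e-48). PRPF31, another U4/U6 protein, and PRPF19, a ubiquitin ligase of the activated spliceosome, both differed 3.18-fold. PRPF8, the U5 scaffold at the catalytic centre and the member with the highest counts, had 10287 and 12020 in the nucleus and 27792 and 31036 in the cytoplasm (2.64-fold). PRPF38A, a protein of the precatalytic B complex, differed 2.30-fold, and PRPF6, which bridges the tri-snRNP, 1.86-fold. PRPF6 was no longer called under equal library totals (log2 fold change 0.23). The U4/U6 protein PRPF3 went the other way, at 1915 and 2082 in the nucleus and 1548 and 1336 in the cytoplasm (log2 fold change -0.47, adjusted p = 0.000713). That call was lost without the shallower nuclear library (-0.41) or without the shallower cytoplasmic library (-0.37).

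The lowest PRPF genes were PRPF39 and PRPF40B, both counterparts of yeast U1 snRNP proteins. PRPF39 (ENSG00000185246, hg38 chr14:45084107-45116282) had 1574 and 1779 normalized counts in the nucleus and 487 and 433 in the cytoplasm, so the nuclear level was 3.64-fold higher (log2 fold change -1.86, SE 0.15, adjusted p = 4.07e-36). PRPF40B had 1687 and 1477 in the nucleus and 457 and 419 in the cytoplasm, a 3.61-fold difference in the same direction. PRPF38B was 2.46-fold, the kinase gene PRPF4B 1.93-fold and PRPF18, a factor of the second catalytic step, 1.67-fold higher in the nucleus.

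The paralogues PRPF38A and PRPF38B were on different sides. For each read of PRPF38B, the libraries held 0.793 and 0.750 reads of PRPF38A in the nucleus but 3.78 and 5.21 in the cytoplasm. Their log2 fold changes differed by 2.50 (95% interval 2.08 to 2.92). The gene pairs compared within libraries were chosen by name and complex, and no p-value was computed for them.

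**Figure D3:**
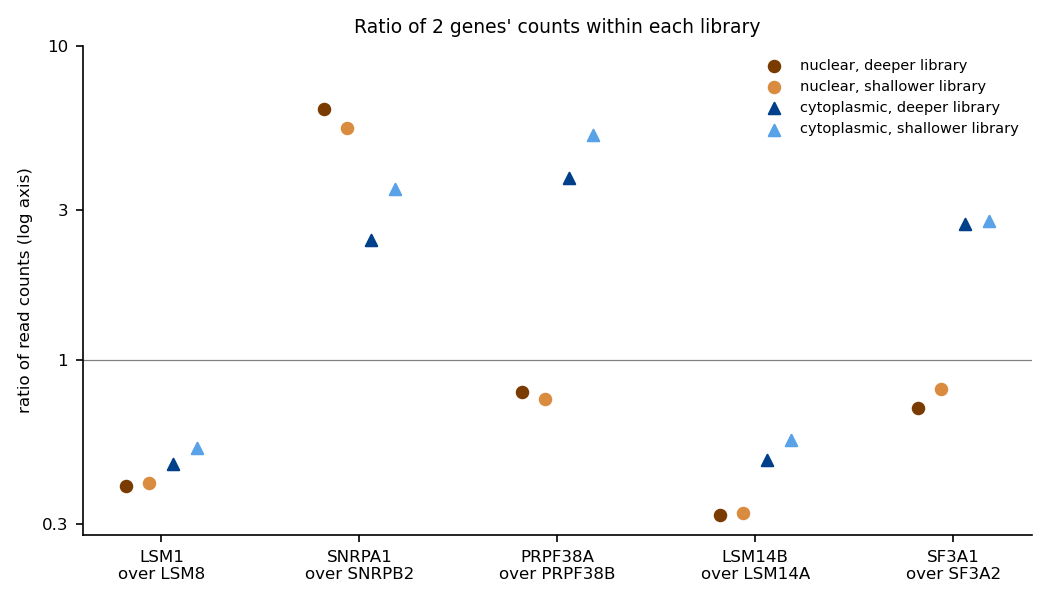
Reads of one gene per read of another within each library (y axis, log scale) for 5 pairs of related members (x axis), in nuclear (circles) and cytoplasmic (triangles) libraries. The ratio of PRPF38A to PRPF38B crosses 1 between the fractions, from 0.793 and 0.750 to 3.78 and 5.21, while LSM1 over LSM8 stays between 0.396 and 0.526.

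U2AF binds the end of the intron, the large subunit U2AF2 at the polypyrimidine tract and the small subunit U2AF1 at the AG. U2AF2 had 3026 and 3109 normalized counts in the nuclear libraries and 6873 and 7140 in the cytoplasmic libraries, a 2.28-fold difference (log2 fold change 1.19, SE 0.11, adjusted p = 6.31e-29). U2AF1 was listed far lower and in the other direction, with 167 and 144 in the nucleus and 29.3 and 35.8 in the cytoplasm (log2 fold change -2.26, SE 0.36, adjusted p = 1.85e-09). U2AF1L5 had almost the same values, 175 and 147 in the nucleus and 25.8 and 34.5 in the cytoplasm (log2 fold change -2.42, SE 0.37, adjusted p = 2.00e-10).

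The values of U2AF1 and U2AF1L5 are uncertain because their sequences are nearly the same. U2AF1 (ENSG00000160201) lies at hg38 chr21:43092956-43107570 and U2AF1L5 (ENSG00000275895) at hg38 chr21:6484623-6499248, both on the minus strand, and GENCODE 44 tags the latter as an artifactual duplication. The spans, of 14615 and 14626 bases, differed at 29 bases (99.8% identity). In the canonical transcript, 0 of 720 coding bases and 1 of 945 transcript bases differed. Over all annotated exons of U2AF1, 22 of 11095 bases differed. A read that covers none of the differing bases maps equally well to both loci. How reads with several best positions were treated is not stated outright for these libraries. The authors' methods name only a minimum-overlap flag for this counting, and say that featureCounts normally recognises such reads by an alignment tag. Neither the level, the fold change nor the call listed for U2AF1 or U2AF1L5 can be read as that of the U2AF1 mRNA. This pair enters the U2AF median of -0.67 and gives 2 of the 10 nuclear calls. Exon 5 shows the coding identity, and a stretch of intron 1 shows a place where the loci can be told apart, both written 5′ to 3′ with differing bases in capitals. Exon 5 spans chr21:43095438-43095536 in U2AF1 and chr21:6487107-6487205 in U2AF1L5. The intronic stretch spans chr21:43107221-43107271 and chr21:6498899-6498949.
U2AF1 exon 5: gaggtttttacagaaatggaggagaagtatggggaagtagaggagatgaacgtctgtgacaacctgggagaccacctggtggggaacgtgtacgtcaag
U2AF1L5 exon 5: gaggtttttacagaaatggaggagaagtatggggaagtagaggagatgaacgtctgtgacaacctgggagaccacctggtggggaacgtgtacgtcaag
U2AF1 intron 1: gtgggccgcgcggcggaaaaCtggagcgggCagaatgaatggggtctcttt
U2AF1L5 intron 1: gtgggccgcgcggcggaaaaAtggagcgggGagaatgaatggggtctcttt
The exon lines are the same over all 99 bases, and the intron lines differ at 2 of 51.

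U2AF1L4, another paralogue of U2AF1, was low and not called, with 59.7 and 65.6 normalized counts in the nucleus and 131 and 106 in the cytoplasm (log2 fold change 0.92, SE 0.34, adjusted p = 0.0115). Members also have processed pseudogenes elsewhere in the genome. There were 53 entries with a symbol of these families and a biotype other than protein_coding, taken without a check that each is a pseudogene. Their summed mean normalized count was 121, or 0.101% of the total of members and these entries together. The highest, SNRPGP2, had a mean of 50.2. Reads of SNRPG and other small genes that fall on pseudogene copies cannot be assigned with certainty.

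The small ring genes were then set beside the SF3 and PRPF genes. Over the Sm, LSm and U7 ring genes the median log2 fold change was 1.99 (17 genes, 0.29 to 3.37), and 16 were called cytoplasmic and 0 nuclear. Over the SF3 and PRPF genes it was 1.07 (22 genes, -1.86 to 3.54), with 14 called cytoplasmic and 6 nuclear. The medians differed by 0.92, a difference that does not depend on the scaling between fractions. Of the ring genes, 16 of 17 lay above the SF3 and PRPF median, while 4 of 22 SF3 and PRPF genes lay above the ring median and 8 below the lowest ring gene. No ring gene reached SF3B5. The 9 SF3 genes alone had a median of 1.79 and the PRPF genes of 0.09, and SF3A2 was the SF3 gene below the lowest ring gene.

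In summed normalized counts the ring genes gave 8617 and 9295 in the nuclear libraries and 40926 and 42564 in the cytoplasmic libraries. The SF3 and PRPF genes gave 48013 and 52836 in the nucleus and 102276 and 107327 in the cytoplasm, of which PRPF8 held a large part. Both sums were higher in the cytoplasm in both libraries, that of the ring genes by the larger factor.

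The groups also differed in gene structure. The ring genes had a median span of 13.4 kb and a median coding length of 309 nt, and the SF3 and PRPF genes 28.3 kb and 1822 nt. Across the 50 tested members the log2 fold change was lower for longer genes, with a Spearman rho of -0.51 for gene span, -0.44 for summed intron length, -0.41 for coding length and -0.48 for exon number. Over 15329 tested protein-coding genes rho was -0.60 for gene span and -0.40 for coding length. These are descriptions across genes measured in the same libraries, and genes are not independent replicates. Among ring genes rho with span was -0.59 (17 genes), and with coding length 0.21. Among SF3 and PRPF genes it was -0.57 and -0.36 (22 genes).

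The medians of the groups were close in both bands under 30 kb. Under 10 kb, 7 ring genes had a median of 2.33 and 3 SF3 genes (SF3B4, SF3B5 and SF3B6) of 2.41, while 2811 protein-coding genes had a median of 1.70. From 10 to 30 kb, 9 ring genes had a median of 1.62 and 8 SF3 and PRPF genes of 1.67, beside 0.74 for 4178 protein-coding genes. The difference of medians thus went from 0.92 over all spans to -0.05 within this band. From 30 to 100 kb, 11 SF3 and PRPF genes had a median of 0.09, beside -0.10 for 5015 protein-coding genes, and the only ring gene, SNRPF, was at 1.96. No tested member spanned 100 kb or more, where 67.6% of protein-coding genes were called nuclear.

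Set against protein-coding genes of the same span band, 35 of 50 members lay above the band's median, by 0.64 in the median. The count was 16 of 17 for ring genes (median 0.64 above) and 15 of 22 for SF3 and PRPF genes (median 0.82 above). LSM4 was highest on this measure, 2.12 above its band, followed by SNRPF at 2.06, a gene annotated over 44.9 kb. Of the clearly nuclear members, PRPF38B spans 10.6 kb, lay 2.04 below the median of its band, and was lower than all but 9.77% of the band's genes. Only U2AF1 and its copy, whose values are uncertain, lay further below their band. PRPF39 and PRPF40B lay 1.76 and 1.75 below theirs. SF3A2, at 11.8 kb, was 0.81 below, and LSM6, at 24.3 kb, 0.45 below.

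**Figure D4:**
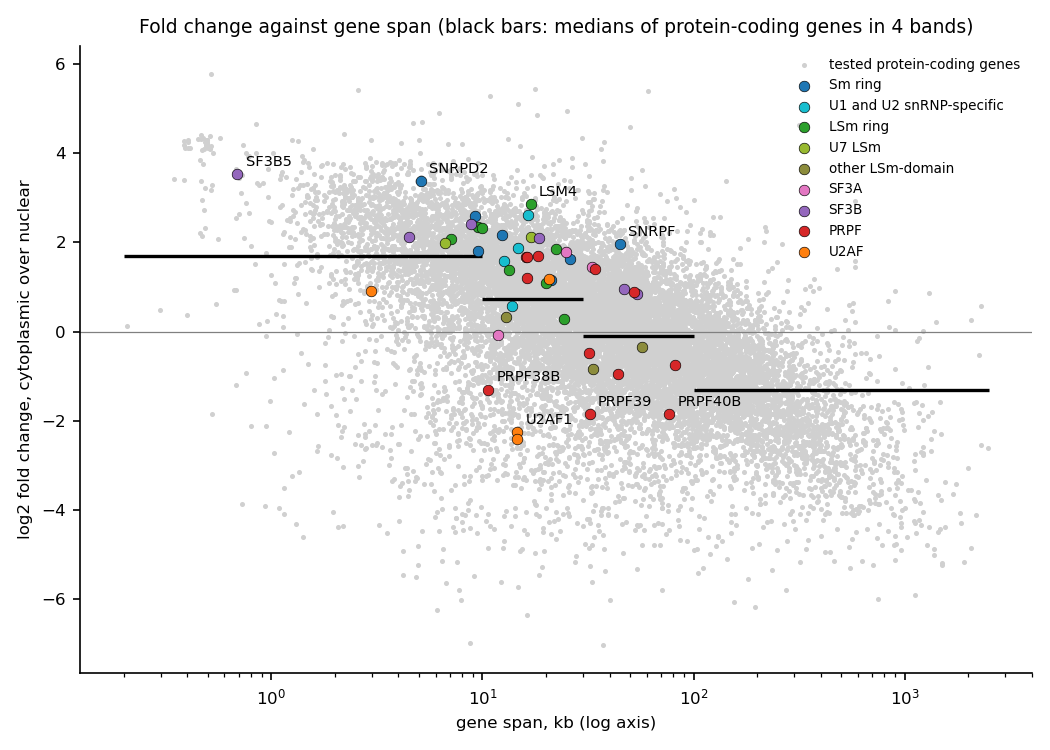
Log2 fold change, cytoplasmic over nuclear (y axis), against gene span in kb (x axis, log scale) for 15329 tested protein-coding genes (grey) and 49 tested members (coloured by class); black bars are medians of protein-coding genes in 4 span bands. The bars step down from 1.70 to -1.32 with span, and most members lie above the bar of their band, with U2AF1, PRPF38B, PRPF39 and PRPF40B below.

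Other genes of the splicing machinery, outside the symbol rule, were also mostly on the cytoplasmic side. Of 25 further snRNP proteins 17 (68.0%) were higher in the cytoplasm and 3 (12.0%) in the nucleus (median log2 fold change 1.19). Over tested protein-coding genes these shares were 35.6% and 28.4%, and over all tested genes 25.9% and 26.5%. SNRNP25, of the minor U11/U12 particle, was highest at 7.14-fold. RNPC3, which also belongs to the U11/U12 particle, was lowest, with 899 and 826 normalized counts in the nucleus and 177 and 223 in the cytoplasm (log2 fold change -2.11, SE 0.18). ZRSR2, which recognises the end of minor introns, and DDX46, a helicase of the U2 snRNP, were the other nuclear ones, at -1.83 and -1.35. Of 20 catalytic-stage factors 14 (70.0%) were cytoplasmic and 3 (15.0%) nuclear (median 1.19). BUD31 was highest at 2.64, and CWC27 (-2.11), CWC22 (-0.87) and DHX15 (-0.40) were on the nuclear side.

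Factors that assemble snRNPs on the way through the cytoplasm include the SMN complex and the methylosome. Of 15 such genes 13 (86.7%) were called cytoplasmic and 1 (6.67%) nuclear (median 0.99). COPRS, a partner of the arginine methyltransferase PRMT5, was highest at 7.17-fold, and TGS1, which hypermethylates the snRNA cap, was the nuclear one at -0.53 (adjusted p = 0.000321). Under equal library totals the medians of the 3 lists were 0.53, 0.53 and 0.32 in the order given, and 7 of the genes called cytoplasmic had values below zero, the lowest being SNRNP70 at -0.30 and the highest GEMIN7 at -0.08, both named after their values were seen. The members' median of 1.42 was above those of the 3 lists, but the ranges overlapped widely and no test was made between lists. The median gene spans of the lists were 23.1, 20.9 and 22.7 kb, beside 34.9 kb for tested protein-coding genes. The lists were not compared within span bands.

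**Figure D5:**
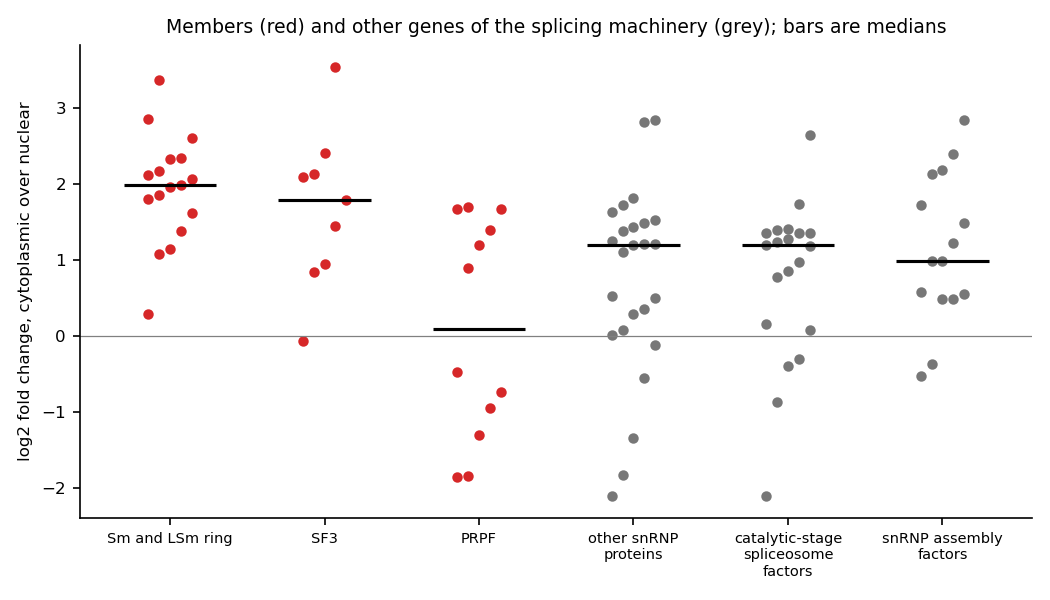
Log2 fold change, cytoplasmic over nuclear (y axis), of genes in 3 groups of members (red) and 3 lists of other splicing genes (grey), with the median over all genes of each group as a bar (x axis, group). Ring and SF3 genes have medians of 1.99 and 1.79, PRPF genes 0.09, and the other lists 1.19, 1.19 and 0.99.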

How the data were processed

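The authors aligned reads to hg38 with STAR, counted exonic and intronic reads with featureCounts 2.0.2 and a custom annotation from GENCODE v34 without shared stretches or readthrough transcripts, and fitted DESeq2. Their deposited table gives per gene a mean normalized count (a signal over all 4 libraries), a log2 fold change with its standard error, a Wald score and p-values. It holds results of the authors' own comparison, used here as the measurements because no single-library values are listed. Single-library counts of all 51 members were recovered as the whole numbers that best return the deposited mean, fold change and standard error. The misfit was at most 1.4e-07 on the log2 scale. Libraries of a fraction were required to lie within 2-fold, except for genes with low means such as SNRPN. For 14 members 1 set of counts returned the mean. For the others the set of smallest misfit was taken, the next misfit being at least 23 times larger. PRPF8 had the most candidates (142174). The method was tested on simulated data. Genes were called at adjusted p-values up to 0.01. Intervals are 1.96 standard errors either way. Gene spans come from GENCODE 44. Members may be named freely, and of the other lists the highest, the lowest and those in the minority direction. Members and lists were chosen with earlier results of these data known. With 2 libraries per fraction, DESeq2 estimates the spread behind each p-value from many genes together, not from the gene's own libraries alone. The p-values cover no libraries beyond these. Python 3.11 with scipy was used. The values of 1 member are not reported here singly, though it enters the counts and medians.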

Additional observations from a re-analysis of the deposited data

How the results depend on the processing

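The counts of 35 cytoplasmic and 10 nuclear members moved little with the settings tried, from 31 to 37 and from 7 to 12, and leaving out 1 library in turn at the fitted dispersion gave 35 to 35 and 8 to 10. Under equal library totals the median log2 fold changes were 0.76 for all members, 1.30 for the Sm ring, 1.30 for the LSm ring, 1.07 for U1 and U2 proteins, 1.39 for U7 LSm, -1.0 for the other LSm-domain genes, 0.78 for SF3A, 1.45 for SF3B, -0.57 for PRPF, -1.33 for U2AF, 1.33 for all ring genes and 0.41 for SF3 and PRPF together. Among the genes named, SNRPA1 turned there (-0.09), as did the uncalled LSM6 (-0.37) and LSM14B (-0.33). As a mean weighted by precision the values were 1.24 for all members, 2.15 for the Sm ring, 1.07 for SF3A, 1.89 for SF3B, 0.40 for PRPF, 0.91 for SF3 and PRPF together and 0.71 for U2AF, where it reversed the sign of the median of -0.67. The difference between ring genes and SF3 and PRPF genes was 1.13 as a weighted mean and -0.05 at spans of 10 to 30 kb, and it lay between 0.85 and 0.97 without 1 library. Without 1 library the SF3B median ranged from 1.97 to 2.26 and the PRPF median from -0.10 to 0.25. The sign of the PRPF median turned without the deeper cytoplasmic library. No paired analysis was possible because which replicate number belongs to which recovered library is not known. Low counts limit U2AF1, U2AF1L4, U2AF1L5 and SNRPN.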
